A study of Mus musculus with 8 samples.

Results

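The proliferating epithelial cells of the mouse colon were examined in 2 single-cell RNA-seq libraries of dissociated colonic crypts. The cells were chosen by their own transcripts: a cell was called cycling when its barcode held at least 500 genes and 2000 UMIs (unique molecular identifiers, each standing for 1 captured mRNA molecule), at most 10% of its UMIs came from mitochondrial genes, and it carried at least 1 UMI of Epcam, an epithelial adhesion molecule, with at least 2 UMIs each of Mki67 and Top2a. Mki67 encodes the Ki-67 protein of dividing cells and Top2a the topoisomerase that untangles chromosomes before they separate. This rule found 404 cycling cells among 5186 epithelial cells of the tissue, 236 of 2436 in replicate 1 and 168 of 2750 in replicate 2. They were compared with the 3245 noncycling epithelial cells, 1467 and 1778 in the libraries, that held no UMI of either gene. The other 1537 epithelial cells fell between both classes and entered no comparison. In all, the 6 epithelial libraries of the series hold 96575 barcodes, of which 42929 passed as epithelial cells.

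All groups came from C57BL/6 mice without a transgene or a treatment named in the labels, with 2 libraries each of tissue, organoid and assembloid epithelium. Tissue epithelium was sequenced straight from isolated crypts. Organoids are balls of epithelium grown from crypts in Matrigel without stroma, and assembloids are organoids embedded with cultured primary stromal cells. Per the study's methods, organoids are maintained with Wnt activators and noggin, and assembloids grow without them unless stated otherwise. The labels give neither the medium nor the day of the sequenced cultures, nor the age of the animals behind a library, and the study's methods name young adult male mice. The study names the lack of an immune cell compartment as a limit of its model. Immune transcripts were nevertheless found in the assembloid libraries, as given below.

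Colonic crypts renew their epithelium from Lgr5-positive stem cells at the base, which divide under Wnt signaling. Their daughters divide further as transit-amplifying cells, and Notch signaling sorts them into an absorptive line, which becomes colonocytes, and a secretory line, which becomes goblet and enteroendocrine cells. BMP signaling rises towards the surface, where cells leave the cycle and differentiate. In the cycle itself, E2F factors drive genes of DNA replication at the entry to S phase, and the complexes that bind the CHR element (cell cycle genes homology region) drive genes of mitosis later on.

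Promoters of genes that were higher in the cycling cells are shown to let the reader see these motifs in place. They were chosen by size of increase among list members that hold the searched motif in the stretch shown. Members without it were passed over, so its presence in these promoters is no finding. Each sequence covers 130 bases upstream of the transcription start as RefSeq places it on GRCm38.p6, and runs 5′ to 3′ on the strand of the gene. For the first 4, which encode spindle motors and a spindle protein, capitals mark the CHR motif TTTGAA and the CCAAT box, here CCAAT, each searched on both strands.

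Kif15 (chr9:122950951-122951080, plus strand): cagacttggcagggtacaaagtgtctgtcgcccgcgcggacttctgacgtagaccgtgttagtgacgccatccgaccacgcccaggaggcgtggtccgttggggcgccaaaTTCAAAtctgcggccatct
Kif2c (chr4:117178773-117178902, minus strand): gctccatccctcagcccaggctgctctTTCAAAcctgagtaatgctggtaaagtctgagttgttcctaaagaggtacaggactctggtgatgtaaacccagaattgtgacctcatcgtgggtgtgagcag
Ckap2l (chr2:129297213-129297342, minus strand): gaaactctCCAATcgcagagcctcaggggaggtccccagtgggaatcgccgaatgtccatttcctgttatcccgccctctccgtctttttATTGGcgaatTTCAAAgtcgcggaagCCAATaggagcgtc
Kif11 (chr19:37376252-37376381, plus strand): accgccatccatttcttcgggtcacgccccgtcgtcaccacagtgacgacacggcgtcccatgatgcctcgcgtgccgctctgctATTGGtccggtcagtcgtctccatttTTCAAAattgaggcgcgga

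For the next 4, which encode replication proteins, capitals mark an E2F-type motif, searched as TTTCCCGC, TTTCGCGC, TTTGCCGC and TTTGGCGC on both strands. Where matches on the 2 strands overlap, as in Mcm6, the capitals run on.

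Dtl (chr1:191575545-191575674, minus strand): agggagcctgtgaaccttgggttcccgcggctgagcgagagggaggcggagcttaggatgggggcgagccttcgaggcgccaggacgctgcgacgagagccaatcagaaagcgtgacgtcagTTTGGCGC
Hells (chr19:38930860-38930989, plus strand): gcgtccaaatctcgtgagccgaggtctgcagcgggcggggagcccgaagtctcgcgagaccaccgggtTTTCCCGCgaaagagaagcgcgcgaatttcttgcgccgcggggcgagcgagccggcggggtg
Mcm6 (chr1:128359706-128359835, minus strand): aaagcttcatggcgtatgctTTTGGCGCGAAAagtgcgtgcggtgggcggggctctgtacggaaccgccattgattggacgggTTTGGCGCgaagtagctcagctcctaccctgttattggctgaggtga
Gins3 (chr8:95633429-95633558, plus strand): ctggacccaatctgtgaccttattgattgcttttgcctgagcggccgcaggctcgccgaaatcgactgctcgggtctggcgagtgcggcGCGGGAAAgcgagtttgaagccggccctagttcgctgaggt

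Over the 250 bases before the start, the CHR motif was found in 15 of 62 mitotic genes with a promoter in the table (24.2%) and in 4 of 36 replication genes (11.1%). All 27025 promoters held it in 16.3%, and the genes tested in these cells in 11.6%. The E2F-type motif was found in 10 of 36 replication genes (27.8%) and 4 of 62 mitotic genes (6.45%), against 1.91% of all promoters and 3.05% of the genes tested. A CCAAT box stood in 69.4% of mitotic and 61.1% of replication promoters and in 34.5% of all promoters, and in 7 of 12 promoters of goblet genes (58.3%). These matches describe letters in the sequence and were not tested as binding sites.

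The rule asks for UMIs of 2 genes in one class and for none in the other, so that it sorts deeper barcodes into the cycling class, and the difference in depth is no finding. The median depth of the cycling cells was 22824 UMIs in replicate 1 and 19920 in replicate 2, against 15550 and 9460 in noncycling cells, and mitochondrial genes gave a median of 7.1% and 7.60% of the UMIs of cycling cells, against 6.10% and 6.94%. Of the 12137 and 16974 tissue barcodes, only 2443 and 2771 passed all 3 limits. Over all barcodes the median mitochondrial share was 13.3% and 16.2% and the median depth 4933 and 4310 UMIs. The members carried general epithelial genes at a lower level than noncycling cells: a list of 12 summed to 9470.0 and 9890.0 CPM, that is, UMIs per 1000000 UMIs summed over the class, against 16000.0 and 17900.0. Immune genes summed to 21.4 and 2.44 CPM in the members and to 13.0 and 9.07 in noncycling cells over a list of 16. Of these genes, 9 and 6 had a UMI in the members, against 12 and 15 in the more numerous noncycling cells. Stromal genes summed to 18.2 and 10.3 CPM in the members and to 17.3 and 13.2 in noncycling cells over a list of 17. Col1a2, Col3a1, Dcn and Pdgfra were at 0 in both classes of both libraries. Col1a1 had UMIs in the members of replicate 1 and Acta2 in those of replicate 2, and both were at 0 in noncycling cells. Barcodes that also occur in another epithelial library made up 11 of 236 and 10 of 168 members (4.66% and 5.95%). They made up 2.79% and 2.25% of noncycling cells and 2.48% and 2.22% of all tissue barcodes. Removal of the shared barcodes left 5540 genes called between cycling and noncycling cells in place of 5582.

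By construction, every member carried Mki67 and Top2a. The median member held 8.5 and 7 UMIs of Mki67 in the 2 libraries and 8.5 and 7 UMIs of Top2a, and the highest held 75 and 38 of Mki67 and 85 and 44 of Top2a. Just inside the rule, 44 and 34 members held exactly 2 UMIs of either gene. Just outside, 125 and 123 epithelial cells held 1 UMI of one gene with at least 1 of the other. The mitotic cyclin Ccnb1, which the rule did not use, stood at 27.7 and 45.4 CPM in the cells just inside and at 16.4 and 10.8 in those just outside, compared with 63.4 and 63.0 in all members. The replication gene Mcm6, also outside the rule, stood at 82.3 and 62.6 CPM just inside and at 40.9 and 75.3 just outside, so that in replicate 2 it was higher outside.

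Cycling cells made up 9.69% of tissue epithelial cells in replicate 1 (95% exact binomial interval 8.54 to 10.9) and 6.11% in replicate 2 (5.24 to 7.07). In organoids the shares were 71.0% and 56.7%, and in assembloids 10.3% and 16.5%. The rule counts UMIs, so that these shares move with depth, and the epithelial cells had a median of 17140 and 10570 UMIs in tissue, 35620 and 16905 in organoids and 4730 and 15321 in assembloids. After each cell was thinned to 5000 UMIs, which kept 2233 of 2436 and 1906 of 2750 tissue cells, 4692 of 4754 and 4261 of 4548 organoid cells and 10420 of 21745 and 5983 of 6696 assembloid cells, the shares with at least 1 UMI of both genes were 8.28% and 7.03% in tissue, 40.5% and 47.3% in organoids and 19.9% and 14% in assembloids. Thinned to 2000 UMIs, with every cell kept, they were 4.02% and 2.33% in tissue, 17.5% and 20.3% in organoids and 7.13% and 5.82% in assembloids. At both depths the tissue libraries lay below all 4 culture libraries. With 2 libraries a group no permutation test can pass, so the shares stand as a description.

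To ask which genes set the cycling cells apart in the tissue, UMIs were summed per library and class and compared with edgeR's quasi-likelihood test, with the library as a block. Genes of DNA replication, repair and mitosis were higher in the cycling cells, together with genes of stem cells and of ribosome production. Genes of colonocytes and enteroendocrine cells were lower. Of 17587 genes tested, 2343 (13.3%) were higher and 3239 (18.4%) lower at an adjusted p under 0.05, with a median log2 fold change of -0.05. With library totals as the only scaling the median moved to 0.20 and the split to 4617 higher and 1804 lower, so that the direction of small changes depended on the scaling. In summed cells, fewer cells of a type and less RNA per cell cannot be told apart. The rule chose cells by 2 cell cycle transcripts, and the counts for cell cycle genes are therefore no independent evidence of their direction. The plot of gene lists shows the change of every tested member.

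**Figure D1:**
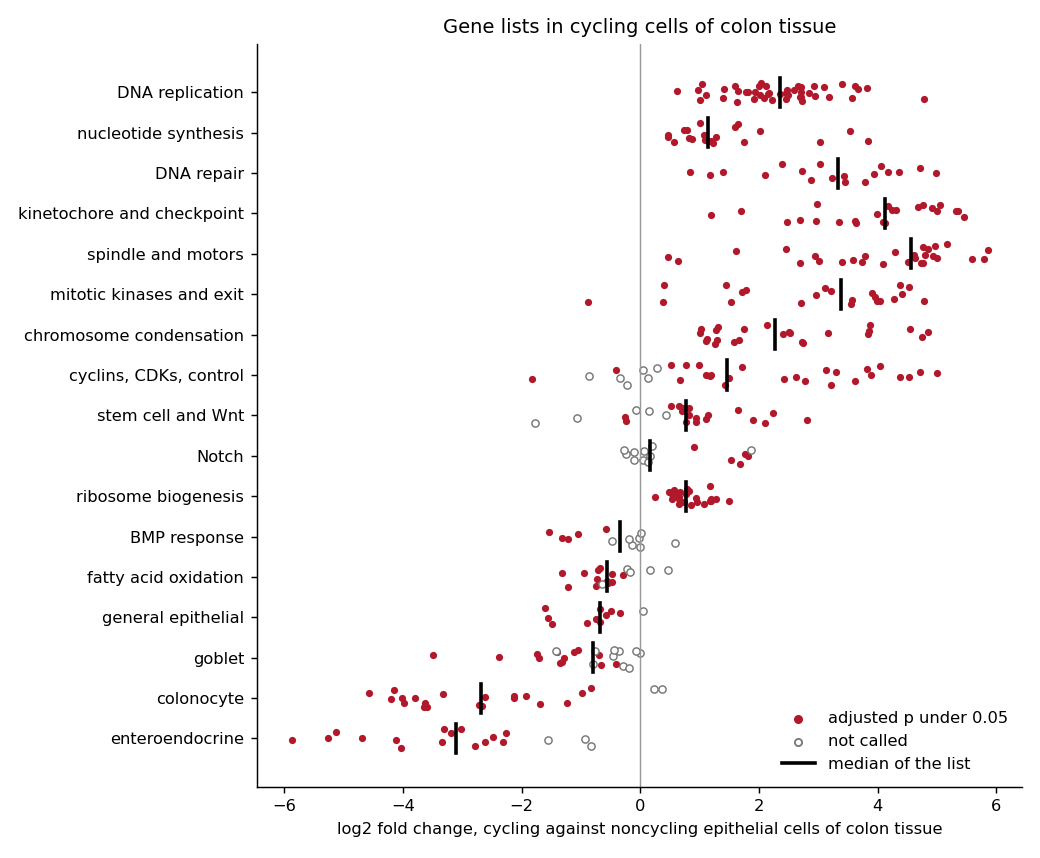
Log2 fold change (x axis) of each gene of 17 lists (y axis) in cycling against noncycling epithelial cells of colon tissue, from 2 libraries. Filled points passed an adjusted p of 0.05 and bars mark list medians. The replication list and the 3 mitotic lists lie to the right with medians between 2.36 and 4.56, and the colonocyte and enteroendocrine lists to the left with medians of -2.69 and -3.11.

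The DNA replication list rose as a whole: 45 of 45 members were higher, with a median log2 fold change of 2.36. Clspn, which links stalled replication forks to the checkpoint kinase, stood at 51.4 and 68.4 CPM in cycling cells of the 2 libraries and at 1.31 and 2.28 in noncycling cells. The libraries did not overlap between the classes, and the log2 fold change was 4.78 ± 0.46 (SE, n = 2 libraries, edgeR adjusted p = 9.29e-05). Here and below, SE and p rest on a spread estimated over all 6 epithelial libraries, cultures included, and not on the 2 tissue libraries alone. Uhrf1, which carries DNA methylation through replication, rose by 3.83 ± 0.33 on the log2 scale. The helicase subunits Mcm3 and Mcm6 rose by 2.95 ± 0.28 and 2.50 ± 0.24. Among the genes whose promoters are shown, Dtl, part of a ligase that degrades licensing factors, rose by 3.57 ± 0.33, the chromatin remodeler Hells by 3.10 ± 0.33 and the helicase cofactor Gins3 by 2.46 ± 0.33. Pclaf, a binding partner of the sliding clamp PCNA, was among the 10 largest increases above a mean of 5 log2 CPM, at 161.5 and 170.7 against 4.93 and 9.12 CPM (log2 fold change 4.31 ± 0.33).

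Nucleotide synthesis genes followed, with 21 of 21 higher at a smaller median of 1.14. Rrm2, the regulated subunit of ribonucleotide reductase, had the largest change of this list, with 40.7 and 55.6 against 2.06 and 3.44 CPM and a log2 fold change of 3.84 ± 0.32 (adjusted p = 4.75e-05). Thymidine kinase Tk1 rose by 3.54 ± 0.29. DNA repair genes rose in 18 of 18 cases with a median of 3.33. Brca1, which acts in homologous recombination, stood at 42.4 and 73.0 CPM in cycling cells and 1.05 and 2.62 in noncycling cells (4.71 ± 0.40). Rad51b, which acts in the same pathway, had the most even values of the leading genes, at 277.7 and 278.8 against 14.8 and 15.9 CPM (3.88 ± 0.12, adjusted p = 8.1e-07).

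Mitotic genes had the largest medians of the lists. All 23 kinetochore and checkpoint genes were higher with a median of 4.12, and all 28 genes of the spindle and its motors with a median of 4.56. The motor Kif15 stood at 90.4 and 89.0 CPM in cycling cells and at 0.63 and 1.99 in noncycling cells. This was the largest change of the spindle list, at 5.86 ± 0.58 (adjusted p = 0.00011). The spindle pole protein Aspm rose by 5.79 ± 0.53 and Anln, a scaffold of the contractile ring, by 5.60 ± 0.42. Kif2c, Ckap2l and Kif11, whose promoters are shown, rose by 4.94 ± 0.47, 4.85 ± 0.45 and 4.61 ± 0.36, and Kif23, a motor of the central spindle, by 3.59 ± 0.19.

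At the kinetochore, Cenpf (chr1:189640606-189688086, minus strand, GENCODE M21 on GRCm38) had the highest log2 fold change among genes with a mean of at least 5 log2 CPM, the genes of the rule left out, with 263.1 and 184.6 CPM in cycling cells against 4.71 and 6.6 in noncycling cells. Its log2 fold change of 5.01 ± 0.56 was followed, above that level, by 4.91 ± 0.27 for Cenpp, a subunit of the constitutive centromere network. The checkpoint kinase Ttk, the kinetochore scaffold Knl1 and the motor Cenpe rose by 5.36 ± 0.55, 5.33 ± 0.46 and 5.06 ± 0.40.

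Of 22 mitotic kinases and exit factors, 21 were higher, with a median of 3.38. Among them were Nek2, a centrosome kinase, at 4.53 ± 0.45, Aurkb, the kinase of the chromosomal passenger complex, at 4.42 ± 0.41, and its partner Birc5 at 3.99 ± 0.39. Cdc20 and Ube2c, which act with the anaphase-promoting complex, rose by 4.28 ± 0.48 and 3.96 ± 0.36. The one lower member, named after its value was seen, was Pttg1, the securin that delays the separation of sister chromatids. It stood at 29.9 and 26.1 CPM in cycling cells and 41.2 and 43.7 in noncycling cells, without overlap, and fell by 0.89 ± 0.14 on the log2 scale (edgeR adjusted p = 0.00126).

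Chromosome condensation genes were higher in 24 of 24 cases with a median of 2.27. The condensin subunit Ncaph rose by 4.85 ± 0.37, Esco2, which acetylates cohesin in S phase, by 4.75 ± 0.55 and the condensin core Smc2 by 3.86 ± 0.39. The replication-linked histone genes Hist1h2ap and Hist1h2ae stood at 1975 and 1534 and at 397.9 and 291.5 CPM, and rose by 4.16 ± 0.37 and 3.32 ± 0.42. Histone genes are near-identical copies, and the split of reads between single copies is uncertain.

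Cyclins and their controls did not move as one: 24 of 32 were higher, 2 were lower and 6 did not pass, with a median of 1.47. Ccna2, the cyclin of S and G2 phase, rose by 4.39 ± 0.46, the mitotic cyclin Ccnb1 by 4.04 ± 0.42 and their kinase Cdk1 by 3.89 ± 0.32. The 2 lower genes were named after their values were seen. The CDK inhibitor Cdkn1a stood at 45.0 and 54.0 CPM in cycling cells and 137.5 and 147.6 in noncycling cells, and fell by 1.83 ± 0.11 on the log2 scale. Ccnd2, a G1 cyclin, fell by 0.40 ± 0.09, and the call was lost with library totals alone, where the change was -0.10.

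**Figure D2:**
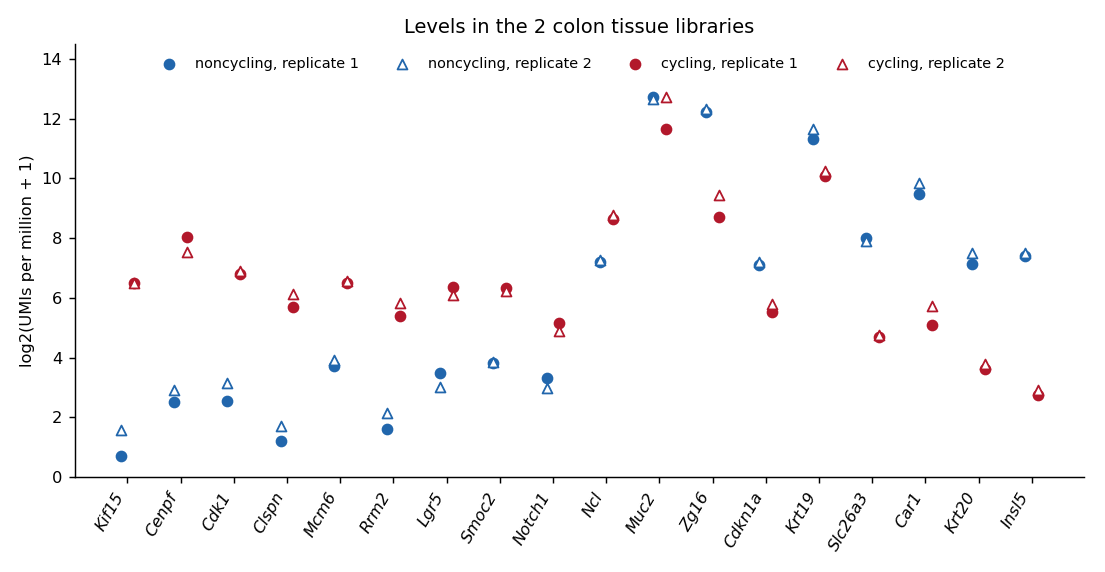
Levels of 18 genes (x axis) as log2 of CPM plus 1 (y axis) in the summed cycling and noncycling epithelial cells of the 2 colon tissue libraries. Red and blue symbols do not overlap for any gene but Muc2, where cycling cells of replicate 1 lie below the other 3 sums.

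Stem cell and Wnt genes were higher in 16 of 23 tested cases and lower in 2, with a median of 0.76. Lgr5 (chr10:115450311-115587780, minus strand), the receptor that marks crypt base stem cells, stood at 81.0 and 68.1 CPM in cycling cells and 10.2 and 7.03 in noncycling cells. The classes did not overlap, and the log2 fold change was 2.82 ± 0.10 (n = 2 libraries, edgeR adjusted p = 1.04e-06). Smoc2, a secreted matrix protein of the stem cell signature, rose by 2.24 ± 0.21, the Wnt target and adhesion receptor Cd44 by 1.90 ± 0.11, the Wnt feedback gene Axin2 by 1.14 ± 0.12 and Znrf3, a ligase that removes Wnt receptors, by 1.11 ± 0.09. Lgr4 and Prom1, named after their values were seen, were called lower by 0.25 each on the log2 scale, but their classes overlapped and both changes turned to 0.05 with library totals alone.

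Of 15 Notch pathway genes tested, 5 were higher and 10 did not pass. The receptors Notch1 and Notch2 stood at 34.4 and 28.8 and at 18.1 and 17.4 CPM in cycling cells, against 9.09 and 6.89 and 4.97 and 3.25 in noncycling cells. Notch1 rose by 1.69 ± 0.15 and Notch2 by 1.81 ± 0.26. The other higher members were Jag2, a ligand named after its value was seen (1.76 ± 0.37), Dtx4, a ligase of the pathway (1.53 ± 0.29), and Lfng, which modifies the receptors (0.91 ± 0.18). With cells thinned to 2000 UMIs only 2 Notch pathway genes were called higher, and Dtx4 turned to -0.55. The target gene Hes1 stood at 292.4 and 172.6 against 198.7 and 128.3 CPM and did not pass (0.20 ± 0.08, adjusted p = 0.108).

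Ribosome biogenesis genes were higher in 25 of 25 cases with a modest median of 0.77. The nucleolar proteins Nolc1, Nop56 and Ncl rose by 1.5 ± 0.12, 1.28 ± 0.12 and 1.20 ± 0.10, the last from 145.3 and 152.9 to 402.7 and 441.4 CPM.

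Genes of mature colonocytes were lower in 20 of 22 cases, with a median of -2.69. The carbonic anhydrase Car1 (chr3:14766216-14808368, minus strand) stood at 33.3 and 51.8 CPM in cycling cells and 713.1 and 912.7 in noncycling cells, and fell by 4.58 ± 0.19 on the log2 scale (adjusted p = 2.09e-06). The related enzyme Car4 fell by 3.98 ± 0.21, the acute phase gene Saa1 by 4.16 ± 0.37, and Krt20, a keratin of surface cells, by 4.02 ± 0.20. The water channel Aqp8 and the chloride-bicarbonate exchanger Slc26a3 fell by 3.64 ± 0.15 and 3.60 ± 0.17. Outside the lists, the 10 largest decreases above a mean of 5 log2 CPM included Fxyd4, a regulator of the sodium pump (-4.37 ± 0.15), Tgm3, a transglutaminase (-4.28 ± 0.14), Spink1, a trypsin inhibitor (-3.69 ± 0.22), and Pmp22, a membrane protein (-3.61 ± 0.21).

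Enteroendocrine genes were lower in 15 of 18 cases with a median of -3.11. The peptide hormone genes Pyy and Insl5 stood at 21.1 and 23.6 and at 5.76 and 6.51 CPM in cycling cells, against 754.1 and 621.0 and 168.9 and 182.0 in noncycling cells. They fell by 5.26 ± 0.38 and 5.14 ± 0.15, and the glucagon gene Gcg fell by 5.88 ± 0.30. Chga, a protein of hormone granules, differed between the libraries: it stood at 0.80 CPM in the members of replicate 1 and at 33.1 in those of replicate 2, where 5 cells held 97.5% of its UMIs (log2 fold change -3.03 ± 0.67 on both). Of 11 tuft cell genes tested, 2 were called lower, near the share of all genes (18.4%), and none in cells with at least 10000 UMIs. They were the kinase Dclk1 and Sh2d6, the first with 6 UMIs in 1 member of replicate 1 and 38 UMIs in 7 members of replicate 2.

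Goblet cell genes divided: 13 of 23 were lower, none was higher and 10 did not pass, with a median of -0.80. The lectin Zg16, secreted by mature goblet cells, stood at 416.8 and 694.6 CPM in cycling cells against 4808 and 5098 in noncycling cells, a decrease of 3.50 ± 0.20 on the log2 scale (adjusted p = 7.83e-06). Clca1 and Fcgbp, which are secreted with the mucus, fell by 2.38 ± 0.16 and 1.75 ± 0.28. Muc2 and Atoh1, described next, did not meet the rule for named genes and were chosen after their values were seen. Muc2 (chr7:141690340-141754693, plus strand), the main mucin, stood at 3217 and 6822 against 6810 and 6418 CPM, so that the classes overlapped (-0.80 ± 0.27, adjusted p = 0.0532). Atoh1 (chr6:64729125-64731245, plus strand), the factor that commits cells to the secretory line, stood at 39.1 and 58.4 against 51.7 and 54.2 (-0.45 ± 0.23, adjusted p = 0.176).

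Among 12 genes of the BMP response, 5 were lower and 7 did not pass. Id3, a direct BMP target, fell by 1.54 ± 0.15 from 155.3 and 171.8 to 75.1 and 62.2 CPM, and Id1 by 1.05 ± 0.14. The inhibitors Smad6 and Smad7 fell by 1.31 ± 0.23 and 0.57 ± 0.11, and the ligand Bmp2 by 1.23 ± 0.12. With at most 5% mitochondrial UMIs Smad7 turned to 0.11, and 2 of the list were called lower there as well as after thinning to 2000 UMIs. With library totals alone 2 of the 12 were higher and 4 lower. Fatty acid oxidation genes were lower in 12 of 17 cases with a median of -0.56, among them Slc16a1, a carrier of butyrate and lactate (-1.32 ± 0.10), and the dehydrogenase Acadm (-1.22 ± 0.11). With library totals alone 2 of this list were higher and 8 lower, and after thinning to 2000 UMIs 1 was higher and 5 lower. General epithelial genes were lower in 10 of 11 cases with a median of -0.68, led by Krt19 (-1.61 ± 0.08) and the galectin Lgals4 (-1.55 ± 0.07). Immediate early and stress genes are known to respond to tissue dissociation. Of 15, 6 were lower and 1 higher, with Zfp36 at -0.74 ± 0.10, Ddit3 at -0.65 ± 0.16 and Fosb, the higher one, at 0.32 ± 0.07. With library totals alone this split turned to 4 higher and 3 lower.

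The members were not of one kind. Summed over a cell, replication genes took a median of 17.6 and 23.2 of 10000 UMIs in the cycling cells of the 2 libraries, and the 3 mitotic lists 71.5 and 63.5, against 3.42 and 4.30 and 9.30 and 12.2 in noncycling cells. From the 10th to the 90th percentile, the replication share ran from 5.15 to 48.9 in replicate 1 and from 6.25 to 54.5 in replicate 2. Set against the 95th percentile of noncycling cells, 126 of 236 and 84 of 168 members were above it for both groups of genes, 86 and 64 for mitotic genes alone, 13 and 11 for replication genes alone, and 11 and 9 for neither. These classes depended on depth: among cells with at least 10000 UMIs, with the limits set anew, 131 of 209 and 116 of 147 members were above for both, 64 and 27 for mitotic genes alone, 9 and 2 for replication genes alone and 5 and 2 for neither. The plot of single cells shows both shares for each member. In organoids the replication share of cycling cells spanned less, from 18.3 to 48.3 and from 16.6 to 48.1 at the same percentiles, and in assembloids it ran from 6.05 to 23.1 and from 6.24 to 29.1.

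**Figure D3:**
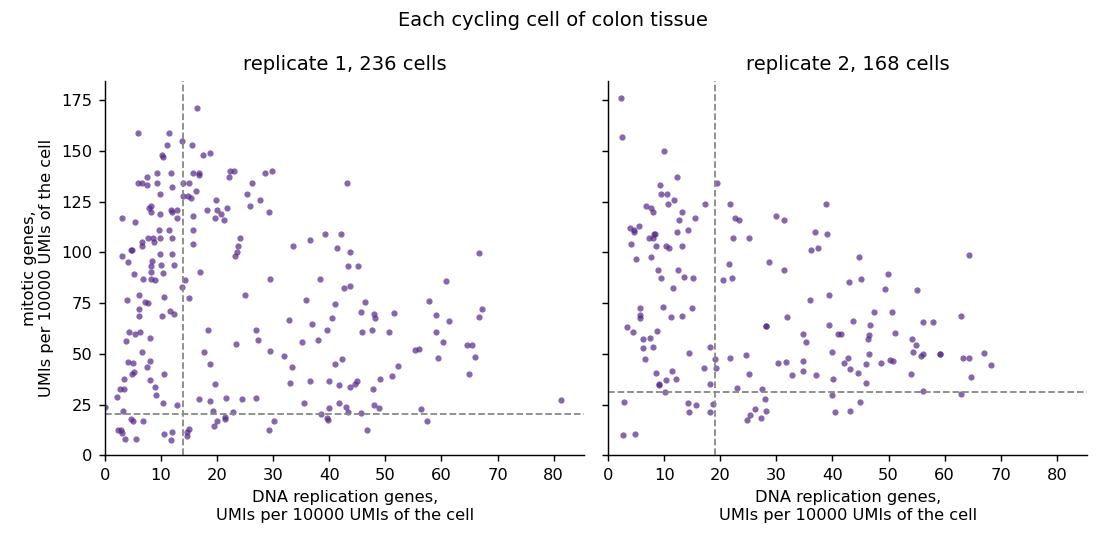
Each point is 1 cycling cell of colon tissue, by the UMIs of the replication list (x axis) and of the 3 mitotic lists (y axis) per 10000 UMIs of the cell. Dashed lines mark the 95th percentile of noncycling cells of the same library, and 126 of 236 and 84 of 168 cells lie above both.

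Lineage genes were read as the share of cells with a UMI after thinning to 5000 UMIs, which left out 3 and 1 members. It also left out 158 noncycling cells of replicate 1, and in replicate 2 it kept only 1906 of all 2750 epithelial cells. Lgr5 was found in 19.7% and 16.8% of cycling cells (exact binomial interval 14.8 to 25.4 in replicate 1) and in 3.21% and 2.17% of noncycling cells. Krt20 cells are the part of the noncycling class with at least 2 UMIs of Krt20, a keratin of surface cells that should lack Lgr5. In them Lgr5 was found in 0.89% and 0.549%. Smoc2 was found in 28.3% and 29.3% of cycling cells, against 5.19% and 5.50% of noncycling cells and 1.78% and 1.92% of Krt20 cells. Atoh1 was found in 12.4% and 16.2% of cycling cells and in 16.7% and 18.9% of noncycling cells, with 5.04% and 5.49% in Krt20 cells. Car1, in contrast, was found in 14.2% and 18.0% of cycling cells, 38.9% and 51.8% of noncycling cells and 77.4% and 84.1% of Krt20 cells. The median depths before thinning were 17182 and 15182 UMIs in Krt20 cells.

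The mucin gene Muc2 split the cycling cells in both libraries. The cells fell into a low and a high group, and a limit of 16 UMIs of Muc2 per 10000 was set after this distribution had been seen, so the classes are described without a test, and the genes given for them were picked after their values were seen. Above it were 63 of 236 members in replicate 1 (26.7%, exact binomial interval 21.2 to 32.8) and 65 of 168 in replicate 2 (38.7%, 31.3 to 46.5), with 22 and 13 members within a factor of 2 of the limit. The same limit was passed by 32.4% and 44.5% of noncycling cells and by 5.46% and 11.2% of Krt20 cells. Muc2 itself summed to 9520 and 16300 CPM in the high cells and to 202 and 301 in the low cells.

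The Muc2-high cycling cells also held more of other secretory transcripts in their sums. Atoh1 stood at 98.9 and 131 CPM in them and at 10.4 and 8.25 in the Muc2-low cycling cells, and Spdef, a factor of goblet cell maturation, at 61.3 and 130 against 6.63 and 10.5. The Notch ligand Dll1, which secretory progenitors present to their neighbors, stood at 20.8 and 16 against 4.02 and 4.59, and the secretory factor Gfi1 at 10.4 and 8.65 against 0.473 and 0.917. In the low cells, Lgr5 stood at 108 and 100 CPM against 24.2 and 21.9 in the high cells. Smoc2 stood at 96.5 and 90.8 against 45.0 and 49.9, Notch1 at 40.0 and 37.6 against 22.7 and 16, and Hes1 at 353 and 233 against 166 and 84.5. None of these genes overlapped between the classes over the 2 libraries. They were picked after their values were seen, so this adds no support for the split. By share of cells with a UMI, Smoc2 was found in 55.6% and 40.0% of the high and 57.2% and 59.2% of the low cells. Axin2 was found in 52.4% and 41.5% of the high and 53.2% and 37.9% of the low cells. Slc12a2, also of the stem cell and Wnt list, went the other way, at 703 and 493 CPM in the high and 419 and 389 in the low cells.

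Cell cycle genes differed less between these classes, but all cells of both had passed the rule on Mki67 and Top2a. The split, in turn, was made on Muc2, so the contrast with the secretory genes is built in and is no finding. Ccnb1 stood at 62.3 and 51.2 CPM in the high and at 63.9 and 71.1 in the low cells, and the mitotic share was 60.6 and 60.9 against 74.9 and 63.9 of 10000 UMIs. The replication share was 14.8 and 20.4 in the high and 18.8 and 28.0 in the low cells. The high cells were also deeper, with a median of 33489 and 21257 UMIs against 21185 and 17410. Doublets were not called, and their part in the Muc2-high class was not tested.

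**Figure D4:**
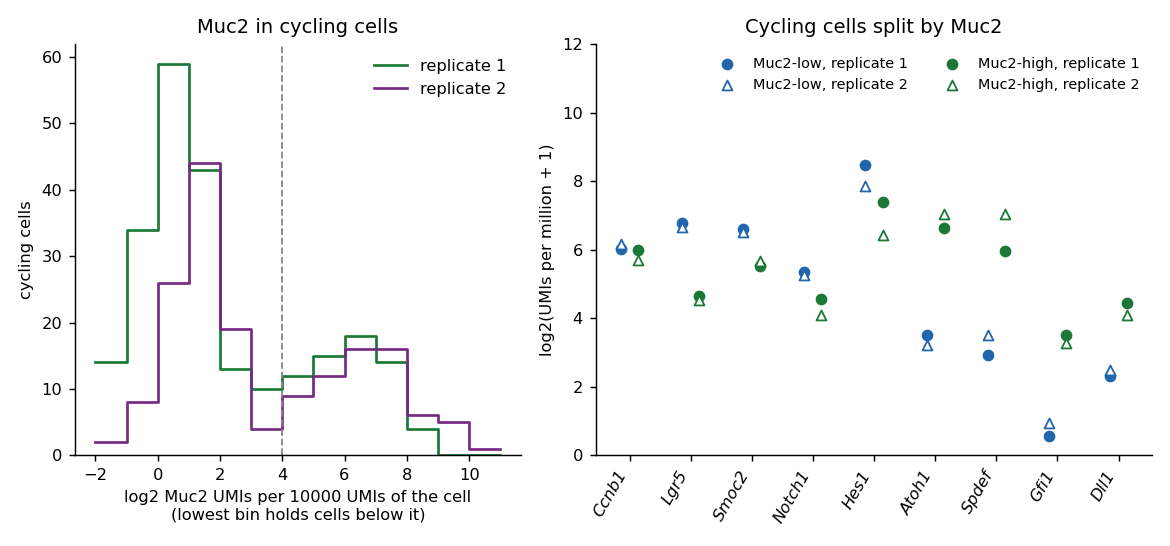
Left, number of cycling cells (y axis) of each tissue library by log2 of Muc2 UMIs per 10000 UMIs of the cell (x axis), with the limit of 16 dashed. Right, log2 of CPM plus 1 (y axis) of 9 genes (x axis) in the Muc2-low and Muc2-high cycling cells of each library: Atoh1, Spdef, Gfi1 and Dll1 lie higher in the high cells, and Lgr5, Smoc2, Notch1 and Hes1 lower.

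Cycling cells of the tissue were then set against cycling cells of organoids, which the same rule found in 3377 and 2579 cells with a median depth of 40072 and 21544 UMIs. The tissue cells held far more goblet, colonocyte and early response transcripts, and less of the machinery of replication and ribosome production. Of 16756 genes tested, 2850 (17.0%) were higher and 3021 (18.0%) lower in tissue (35.0% called, median log2 fold change -0.06), and 3676 higher and 1525 lower with library totals alone, where the median was 0.28.

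All 23 goblet genes were higher in cycling cells of tissue than of organoids, with a median of 5.55. Muc2 stood at 3217 and 6822 CPM in tissue and at 3.27 and 19.7 in organoids, without overlap (log2 fold change 8.51 ± 0.89, adjusted p = 4.22e-05). Others among those higher were Zg16 (9.20 ± 0.42), the kallikrein Klk1 (8.31 ± 0.38), Sval1 (7.86 ± 0.50), the lectin Reg4 (6.83 ± 0.68), the peptide gene Spink4 (6.40 ± 0.49) and Fcgbp (5.79 ± 0.33). Even the Muc2-low members of the tissue held 202 and 301 CPM of Muc2, above both organoid libraries, and free RNA of tissue goblet cells was not separated from their own. Colonocyte genes were higher in 16 of 22 cases, with the membrane mucin Muc3 at 6.83 ± 0.32, and lower in 1, named after its value was seen, Emp1 (-1.24 ± 0.35), whose libraries overlapped. Dmbt1, a secreted scavenger protein, was higher by 6.69 ± 0.39. Of 15 immediate early and stress genes, 13 were higher, among them the chaperone Hspa1a (6.02 ± 0.33), Fosb (5.10 ± 0.38) and Dusp1 (4.51 ± 0.24), and 1, Ier3, was lower (-3.27 ± 0.29). The median mitochondrial share of cycling cells was 7.1% and 7.6% in tissue against 2.09% and 4.83% in organoids and 2.65% and 4.07% in assembloids. Among cells with at most 5% mitochondrial UMIs, again 13 of the 15 genes were called higher than in organoids and 1 lower. Per the study's methods, tissue was treated with EDTA and DTT and shaken before TrypLE. Organoids were treated with TrypLE alone, and assembloids with Liberase and DNase before TrypLE. Dissociation and group therefore cannot be told apart in these genes.

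Replication genes were lower in cycling cells of tissue in 31 of 45 cases and higher in none, with a median of -0.85, and with library totals alone the lower calls shrank to 11. Mcm3 stood at 56.0 and 70.3 CPM in tissue and 123.4 and 102.9 in organoids (-1.24 ± 0.25), and Hells was lower by 1.29 ± 0.24 on the log2 scale. Ribosome biogenesis genes were lower in 25 of 25 cases, with a median of -1.70. Ncl stood at 402.7 and 441.4 against 1887 and 1469 CPM (-2.39 ± 0.35, adjusted p = 0.000447), and the spermidine synthase Srm was lower by 2.50 ± 0.32. The G1 cyclin Ccnd1 and its kinase Cdk4 were lower by 2.22 ± 0.26 and 1.83 ± 0.32, in a list of 32 cyclins and controls with 12 lower and 2 higher. Of 22 mitotic kinases and exit factors, 9 were lower and 1 higher, Wee1, which holds cells before mitosis (1.43 ± 0.24). With library totals alone the counts were 7 lower and 4 higher for the cyclins and 3 lower and 2 higher for the kinases. The rule counts UMIs, so it asks for a larger share of Mki67 and Top2a in shallower cells. Mki67 stood at 506 and 463 CPM in tissue members, 268 and 328 in organoids and 274 and 263 in assembloids. Top2a stood at 492 and 420, 473 and 550, and 613 and 494 CPM in the same order. The part of the rule in the differences of cell cycle genes to either culture was not tested.

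Stem cell and Wnt genes were lower in tissue in 11 of 22 cases and higher in 2. Lgr5 stood at 81.0 and 68.1 CPM in tissue and 126.7 and 293.7 in organoids (-1.81 ± 0.30), the stem cell factor Ascl2 at 13.4 and 13.3 against 63.4 and 52.1 (-2.50 ± 0.26), and Axin2 was lower by 1.54 ± 0.24. The higher members were Lgr4, named after its value was seen (1.12 ± 0.25) and Rgmb, a BMP co-receptor (1.63 ± 0.23). Smoc2, likewise named after its value was seen, did not pass (0.31 ± 0.20, adjusted p = 0.272). Above a mean of 5 log2 CPM, the 10 largest decreases included Ly6g, Ly6c1 and Ly6a, of a family of lipid-anchored surface proteins, at -4.98 ± 0.30, -4.85 ± 0.32 and -4.05 ± 0.33. Among them were also the mitophagy receptor Bnip3 (-4.43 ± 0.30), the creatine kinase Ckb (-3.58 ± 0.28), Psat1 of serine synthesis (-3.55 ± 0.25), Slc25a4, the mitochondrial ADP/ATP carrier (-3.21 ± 0.37), the glycolytic enzyme Eno1 (-3.13 ± 0.30) and Sprr2a3, a cornified envelope protein (-3.10 ± 0.30). In the tissue, 10 of the 404 members held UMIs of at least 2 of the genes Efna5, Cdh13, Mmp7 and Ly6c1, which were picked after their values were seen, and these 10 cells carried 93.2% and 96.1% of the Ly6c1 UMIs of all members.

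Against assembloids, where 2243 and 1108 cells cycled at a median depth of 14829 and 21935 UMIs, the comparison shares the tissue libraries with the one above. Here the cycling cells of the tissue were higher in stem cell and Wnt genes as well as in goblet genes. Of 16756 genes, 3257 (19.4%) were higher and 4000 (23.9%) lower in tissue (43.3% called, median -0.03), and 4953 higher and 2811 lower with library totals alone, where the median was 0.38.

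Of 22 stem cell and Wnt genes, 13 were higher and 3 lower, with a median of 0.86. Smoc2 stood at 79.9 and 74.1 CPM in tissue and at 2.40 and 3.26 in assembloids, without overlap (4.37 ± 0.24, adjusted p = 1.21e-06). Lgr5 stood at 10.9 and 15.2 CPM in assembloids and was higher in tissue by 2.12 ± 0.31, Ascl2 by 2.04 ± 0.28 and Znrf3 by 2.54 ± 0.30. The lower members were Prom1, a membrane glycoprotein of progenitors (-1.90 ± 0.26), Bmi1, a Polycomb protein (-1.80 ± 0.33), and the receptor Tnfrsf19, named after its value was seen (-1.67 ± 0.40). Thus the order of Lgr5 was organoid above tissue above assembloid, and neighbors in this order did not overlap between their libraries. For Smoc2 the tissue and organoid libraries did not overlap either, but that difference did not pass the test.

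**Figure D5:**
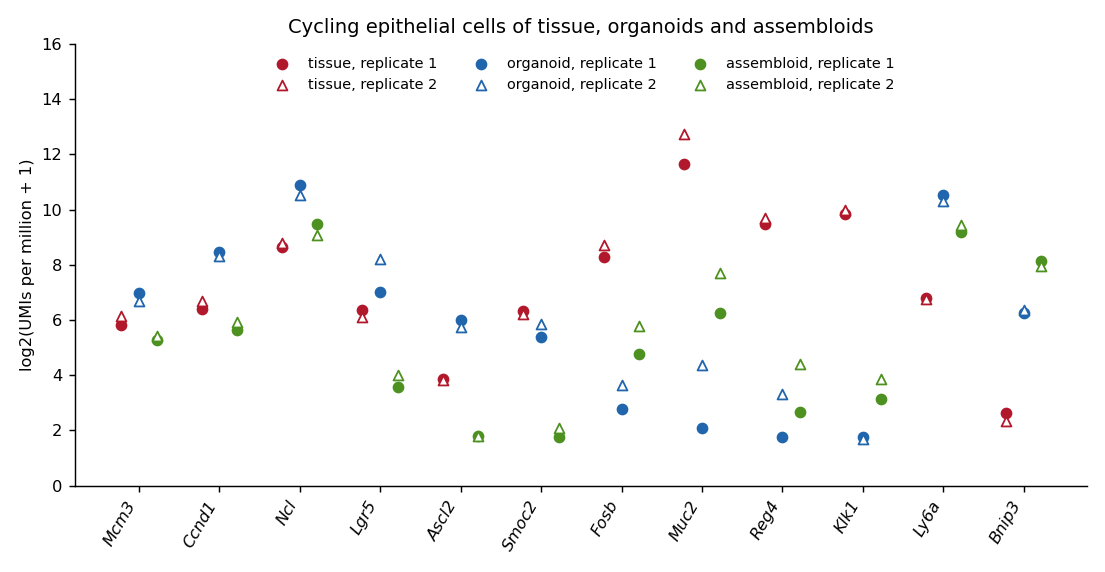
Levels of 12 genes (x axis) as log2 of CPM plus 1 (y axis) in the summed cycling epithelial cells of each of 6 libraries. Lgr5 lies lowest in assembloids and highest in organoids, Muc2, Reg4 and Klk1 highest in tissue, and Bnip3 lowest in tissue.

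Goblet genes were higher in tissue than in assembloids in 22 of 23 cases, with a median of 2.89. Sval1 (6.41 ± 0.47), Klk1 (6.09 ± 0.34), Reg4 (5.57 ± 0.64) and Muc2 (4.79 ± 0.75) were among the 10 largest increases. The others were the serotonin receptor Htr4 (5.81 ± 0.35), the guidance molecule Sema5a (4.60 ± 0.37), the thyroid hormone receptor Thrb (4.18 ± 0.31), the alcohol dehydrogenase Adh1 (4.05 ± 0.36), Retreg1, a receptor for the turnover of endoplasmic reticulum (3.60 ± 0.25), and the adaptor Sorbs2 (3.58 ± 0.27). Htr4 stood at 420.1 and 405.8 CPM in tissue against 3.58 and 7.81 in assembloids.

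The largest decreases included Bnip3, with 5.12 and 4.07 CPM in tissue against 279.8 and 248.7 in assembloids (-6.25 ± 0.32), the oxygen sensor Egln3 (-5.13 ± 0.33) and the oxidase Ero1l of the endoplasmic reticulum (-5.01 ± 0.32). Bnip3 and Egln3 are known targets of the hypoxia factor HIF-1. Slc25a48, a mitochondrial carrier, was lower by 6.21 ± 0.32 on the log2 scale, the zinc finger gene Zfp444 by 4.99 ± 0.33, the tight junction gene Cldn4 by 4.60 ± 0.28, Babam2, a subunit of a deubiquitinase complex, by 4.38 ± 0.48, Ier3 by 4.32 ± 0.30, Car1 by 4.31 ± 0.49 and Ckb by 4.2 ± 0.29. The inhibitor Cdkn1a was lower by 2.85 ± 0.26, at 45.0 and 54.0 against 267.9 and 262.8 CPM.

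Replication genes were higher in tissue in 15 of 45 cases and lower in 2, Pole2 (-1.43 ± 0.23) and Prim1 (-0.85 ± 0.24), polymerase and primase subunits, the latter named after its value was seen. Clspn and Gins3 were higher by 1.11 ± 0.24 and 1.24 ± 0.30. With library totals alone 28 replication genes were higher and 1 lower. Ribosome biogenesis genes were lower in 7 of 25 cases and higher in 1, but with library totals alone 5 were higher and 1 lower, so that the list had no direction common to both scalings. Among those lower were Npm1 at -1.58 ± 0.36 and Ncl at -1.01 ± 0.34. Of 15 immediate early and stress genes, 7 were higher in tissue, among them Fosb (2.82 ± 0.34), and 2 lower, among them Ier3 as given above. Here too, dissociation and group cannot be told apart. Stromal transcripts summed to 249 and 393 CPM in cycling assembloid cells against 18.2 and 10.3 in tissue, and immune transcripts to 116 and 260 against 21.4 and 2.44. The part of this RNA of other cells in the differences was not tested.

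Finally, the change from noncycling to cycling was compared between groups by the interaction term of the same fit. The difference to organoids was called for 3026 of 17587 genes (17.2%), 705 (4.01%) with a larger and 2321 (13.2%) with a smaller or more negative effect in tissue. The difference to assembloids was called for 1972 genes (11.2%), 627 (3.57%) and 1345 (7.65%) in these directions. With library totals alone the splits turned to 2806 and 567 against organoids and to 987 and 723 against assembloids, and with DESeq2 they were 1137 and 1627, and 979 and 1036. Of 23 stem cell and Wnt genes, 12 had a larger effect in tissue than in organoids and none a smaller one, and 17 and none with library totals alone. Against assembloids, 7 had a larger and 4 a smaller effect in tissue. Colonocyte genes were more negative in tissue than in assembloids in 14 of 22 cases and less so in 2, and in 10 and 3 with library totals alone. Against organoids they went both ways, with 8 more negative and 6 less so. The noncycling cells of organoids numbered only 251 and 360, and without the library block 97 and 64 genes were called.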

How the data were processed

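Libraries were made with the 10x Genomics Single Cell 3' v3 kit from C57BL/6 mice, 2 biological replicates per group per the study's methods. Raw UMI counts of each gene in each barcode were deposited by the authors, made with Cell Ranger, version 6 per the processing notes and 7.1.0 per the matrix headers, with mm10 named as the build and no normalization. Strand handling and the counting of introns are not given in the sources used here. The study's clusters were not used. Cycling and noncycling cells were chosen with earlier results of these data known, as were the gene lists and comparisons. Doublets were not called, and leaving out the deepest 5% of cells served as an alternative. UMI counts were summed per library and class (6248188 and 3684128 UMIs in the tissue members) and tested with edgeR 4.0.16 in R 4.3.3 (filterByExpr, TMM, quasi-likelihood, Benjamini-Hochberg adjustment over all genes tested). Cycling and noncycling sums of all 6 epithelial libraries entered one fit of 12 sums with the library as a block, and the 6 cycling sums another. Log2 fold changes are on the TMM scale with their standard error, and CPM use library totals. Standard errors and p-values rest on the spread shared by all libraries of a fit. The text names, for each test, the 10 genes that rose and the 10 that fell furthest, if called, without overlap and at 5 or more mean log2 CPM (5 each way for interactions), up to 8 members of a list by size of change, and others marked as chosen after their values were seen. In simulated data with 191 of 16857 genes changed 4-fold, edgeR recovered 66% in the tissue comparison with 14 false calls. Apart from these genes, raised and lowered alike, all 12 simulated sums had the same gene proportions. The simulation therefore cannot give the errors of real sums, where far more genes differed and the scaling moved the split. Intervals are exact binomial at 95% and cover counting error alone. Alternatives were DESeq2 1.42.0, no filter on low counts, other limits of the rule, depth and mitochondrial share, thinning, libraries left out, and other blocks. Gene positions are from GENCODE M21, which holds 99.85% of the gene identifiers.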

Additional observations from a re-analysis of the deposited data

Results flagged for a closer look

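With 2 libraries per group, no test for a single deviating library was possible. The effects of cycling that differed between tissue and cultures, each by its own interaction test in edgeR at an adjusted p under 0.05, are given as log2 differences of the effect in tissue minus that in the culture, for the genes with the 5 highest and 5 lowest differences.

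Against organoids, the effect in tissue was above that in organoids for the pentraxin gene Mptx1 (5.41), the pancreatic colipase gene Clps (4.62), the matricellular gene Ccn3 (3.74), the transport protein gene Ttr (3.38) and Reg4 (3.36). In each of these, cycling organoid cells held less than 10 CPM. It was below for Zg16 (-6.35), Insl5 (-4.76), the peroxiredoxin Prdx6 (-3.59), Fxyd4 (-3.36) and the magnesium channel Trpm6 (-3.24). Prdx6 stood at 230.9 and 248.4 CPM in cycling and 2186 and 2312 in noncycling tissue cells, and at 537.8 and 332.6 against 624.5 and 357.0 in organoids. Insl5 and Zg16 stood below 1 CPM in both classes of organoid cells, and Zg16 had no UMI in the noncycling cells of organoid replicate 2, so that the organoid side of both differences is a fold between counts near 0.

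Against assembloids, the effect in tissue was above for Timp3, an inhibitor of matrix proteases (2.96), Cenpp (2.79), the interferon-induced Ifitm3 (2.65), the receptor Ror1 (2.28) and Rad51b (2.22). Timp3 stood at 126.8 and 155.8 CPM in cycling against 38.1 and 38.8 in noncycling tissue cells, and at 5.10 and 6.96 against 12.5 and 16.2 in assembloids. Ifitm3 likewise stood at 56.8 and 63.5 against 18.0 and 18.9 in tissue and at 108.5 and 145.1 against 232.6 and 317.2 in assembloids. The summed stromal genes moved between the assembloid classes as well, at 249 and 393 CPM in cycling against 820.0 and 987 in noncycling cells, and their part in the differences of Timp3 and Ifitm3 was not tested. The median mitotic share of noncycling cells was 18.8 and 13.2 of 10000 UMIs in assembloids, against 9.30 and 12.2 in tissue. In assembloid replicate 1 these cells had a median of 3848 UMIs, and the share was 11.8 among those with at least 10000 UMIs. The part of this in the differences of Cenpp and Rad51b was not tested. The effect was below for Insl5 (-3.83), Spink1 (-3.13), Pyy (-3.03), Trpm6 (-2.96) and the goblet cell gene Rep15 (-2.90). Rep15 stood at 32.8 and 47.2 CPM in cycling against 98.7 and 117.6 in noncycling tissue cells, and at 26.1 and 20.4 against 10.6 and 8.55 in assembloids.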

How the results depend on the processing

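Between cycling and noncycling tissue cells 5582 genes were called, and the count fell to 3532 with at most 5% mitochondrial UMIs (56 and 35 members), of which 2278 were higher and 1254 lower, to 1993 with cells thinned to 2000 UMIs and to 2212 without the library block. The interaction with organoids, 3026 genes, gave 495, 721 and 97, and that with assembloids, 1972 genes, gave 789, 339 and 64. With at most 5% mitochondrial UMIs the directions of the interactions turned, to 381 higher and 114 lower against organoids and to 515 and 274 against assembloids. Between cycling cells of tissue and organoids, 5871 genes became 3886 with the stricter mitochondrial limit and 2992 after thinning, and against assembloids 7257 became 3588 after thinning. Leaving out 1 library gave 2680 to 6420 for cycling against noncycling cells, lowest without tissue replicate 1, and 2829 without tissue replicate 2. The interactions gave 1372 to 4275 for organoids and 242 to 2503 for assembloids, and the comparisons of cycling cells 2332 to 6136 and 3535 to 7419. The lowest counts came from fits without a tissue library: without tissue replicates 1 and 2 these were 1584 and 1372, 242 and 265, 2332 and 2815, and 3535 and 4085 in the same order, and without organoid replicate 1 the comparison with organoids gave 3686. Changed direction was seen for Prom1 (0.05 with library totals alone, 0.04 with at most 5% mitochondrial UMIs), Lgr4 (0.05 with library totals alone), Dtx4 (-0.55 after thinning) and Smad7 (0.11 with at most 5% mitochondrial UMIs). The cause was not tested.

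The replicate block left 5829 and 7110 genes called between cycling cells of tissue and organoids or assembloids. Replicate numbers were not shown to pair the libraries, and the labels do not say whether they do. The deviations of same-numbered libraries correlated at -0.024, 0.054 and 0.034 over all genes. Over expressed genes they correlated at -0.157, 0.262 and 0.229, so that not every pair was above 0.1. The mean share of cycling cells over both libraries was 12.7% with at least 1 UMI of each gene and 3.18% after thinning to 2000 UMIs. The mean share of cycling cells with a UMI was, thinned to 2000 UMIs and not thinned, 12.3% and 30.6% for Lgr5, 15.8% and 54.3% for Smoc2, 58.0% and 98.4% for Muc2, and 7.72% and 34.3% for Atoh1. A UMI of Muc2 was common in other cells too. In replicate 1, thinned to 2000 UMIs, it was found in 34.8% of Krt20 cells and 58.8% of noncycling cells, against 49.2% of cycling cells. Thinning, library totals as the only scaling and the removal of shared barcodes were chosen after seeing the data. With 2 libraries per group, the error of every value rests on few degrees of freedom. The fit of all 6 epithelial libraries left 3 residual degrees of freedom. A fit of the tissue libraries alone left 1, and called 7288 of 14014 genes between cycling and noncycling cells.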
